A study of Homo sapiens with 4 samples.

Results

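The mitochondrial ribosomal protein genes were taken from the gene tables as every symbol made of MRPL or MRPS, a number and at most 1 further letter, which gave 78 genes of 28189 symbols. Of these, 49 carry the MRPL symbol of the large subunit and 29 the MRPS symbol of the small subunit. The rule reads symbols and no measured value, though these genes were picked for description with earlier results of these data known. All 78 genes were among the 11390 genes with enough signal to be tested, and 0 of them were listed at 0 in any library.

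RNA of U87 cells, a human glioma line long kept in culture, was sequenced in 4 libraries, 2 for each of 2 groups. The cells of the shPTPRN3 group (2 libraries) received a lentivirus coding for a short hairpin RNA directed at PTPRN, which encodes a tyrosine phosphatase family protein that spans the membrane of hormone-storing secretory granules. The cells of the shNC group (2 libraries) received a lentivirus made from the empty FUGW-H1 vector, while the series' design text calls the control H1-RFP (WT), so the exact control is uncertain. Both groups were grown in DMEM with 10% serum, and 1 hairpin in 1 cell line was compared. The series' title concerns growth of these cells after the knockdown, and the comparison asks what accompanies the hairpin in the transcriptome. The libraries are called biological replicates without a statement that they came from separate cultures, so a p-value here reflects library-to-library spread that may include technical variation.

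Mitochondria translate the few proteins encoded by their own DNA, which are core subunits of the respiratory chain and ATP synthase, on a ribosome of their own. Its RNA comes from mitochondrial DNA, while its proteins are encoded in the nucleus, made in the cytosol and imported. The small subunit binds the messenger RNA and decodes it, and the large subunit joins the amino acids and releases the chain through a tunnel at the inner membrane. Part of the proteins descend from bacterial ribosomal proteins, and part were added in the mitochondrial line. In tumour cells these genes are commonly studied as a part of mitochondrial biogenesis. The transcripts of mitochondrial DNA themselves were not analysed here.

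PTPRN had 4.96 and 3.62 FPKM in the shPTPRN3 libraries, against 27.6 and 19.8 FPKM in the shNC libraries, so the groups did not overlap. FPKM are fragment numbers scaled to transcript length and to library size, and all levels given here are FPKM scaled by 1 factor per library. The difference was -2.22 on the log2(FPKM + 1) scale (SE 0.34), and it missed the threshold of 0.05 after adjustment over all genes tested (limma with Benjamini-Hochberg adjustment, adjusted p = 0.0592). Of 9 glioma and mesenchymal markers, 6 were tested and 0 passed, and their summed level was 9327 and 5793 FPKM in shPTPRN3 libraries and 10335 and 5295 FPKM in shNC libraries. SPARC, a matrix protein, had 229 and 170 FPKM in shPTPRN3 libraries and 37.7 and 34.4 FPKM in shNC libraries (limma adjusted p = 0.0594), and FN1, fibronectin, 341 and 91.6 against 43.2 and 66.8 FPKM. CD44 was also apart and higher in shPTPRN3, NES apart and lower, VIM and S100A6 overlapped, OLIG2 and SOX2 averaged under 1 FPKM with higher values in both shPTPRN3 libraries, and GFAP, an astrocyte marker, was listed at 0 in all 4. Of 15 markers of leukocytes, endothelium, epithelium, neurons and oligodendrocytes, 13 averaged under 1 FPKM. The summed level of these 15 markers was 32.8 and 14.6 FPKM in shPTPRN3 libraries and 10.8 and 10.9 FPKM in shNC libraries, with SNAP25, a neuronal gene, at 28.5 and 10.2 against 7.15 and 5.95 FPKM. None of the 15 was at 0 in every library. The part of the markers in the results below was not tested. Depth estimated from interval widths was 28.5 and 12.7 M fragments in the shPTPRN3 libraries and 18.3 and 12.1 M in the shNC libraries. Transcripts under 1000 bases took 39.8% and 31.4% of FPKM in shPTPRN3 libraries and 47.3% and 34.4% in shNC libraries, so that shNC replicate 1 had the highest share.

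The mitochondrial ribosomal protein genes were well expressed in these cells. Their mean level over 4 libraries ran from 1.08 FPKM for MRPL42 to 268 FPKM for MRPS6, with a median of 29.8 FPKM, beside 7.84 FPKM over all genes tested. In 75 of the 78 the mean was at least 5 FPKM. FPKM are per length, but the length used for each gene is the authors', so levels of different genes compare only roughly. Some deposited values lay above their own deposited confidence intervals. In shNC replicate 1, before scaling, MRPL41 had 437 FPKM with an interval of 276 to 299. MRPL12 had 244 FPKM with 190 to 205, and MRPS24 had 276 FPKM with 190 to 207. MRPL33 and MRPS6 lay inside their intervals.

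Among the large subunit genes, the highest means belonged to MRPL41, MRPL33 and MRPL12. MRPL41, a protein with no bacterial counterpart, had 229 and 81.5 FPKM in shPTPRN3 libraries and 421 and 137 FPKM in shNC libraries. MRPL33, of a bacterial family, had 167 and 137 FPKM in shPTPRN3 libraries and 179 and 81.1 FPKM in shNC libraries. In both genes the groups overlapped, and shNC replicate 1 was the highest library. MRPL12, which forms the flexible stalk that recruits translation factors, had 109 and 68.0 FPKM in shPTPRN3 libraries and 235 and 95.5 FPKM in shNC libraries. Here the groups overlapped because shPTPRN3 replicate 1 lay above shNC replicate 2.

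Among the small subunit genes, MRPS6, MRPS24 and MRPS34 had the highest means. MRPS6 had 160 and 320 FPKM in shPTPRN3 libraries and 252 and 338 FPKM in shNC libraries, and here both libraries numbered 2 were higher than both numbered 1. MRPS6 overlaps SLC5A3, an inositol transporter gene, so reads may have been split between these genes. The authors' strand setting is not given in the sources used here. MRPS24, which overlaps a read-through gene joined to URGCP, had 179 and 184 FPKM in shPTPRN3 libraries and 266 and 160 FPKM in shNC libraries. MRPS34, a mitochondria-specific protein, had 72.0 and 55.7 FPKM in shPTPRN3 libraries and 130 and 77.5 FPKM in shNC libraries. For MRPS34 both shPTPRN3 values were below both shNC values, while for MRPS6 and MRPS24 the groups overlapped.

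**Figure D1:**
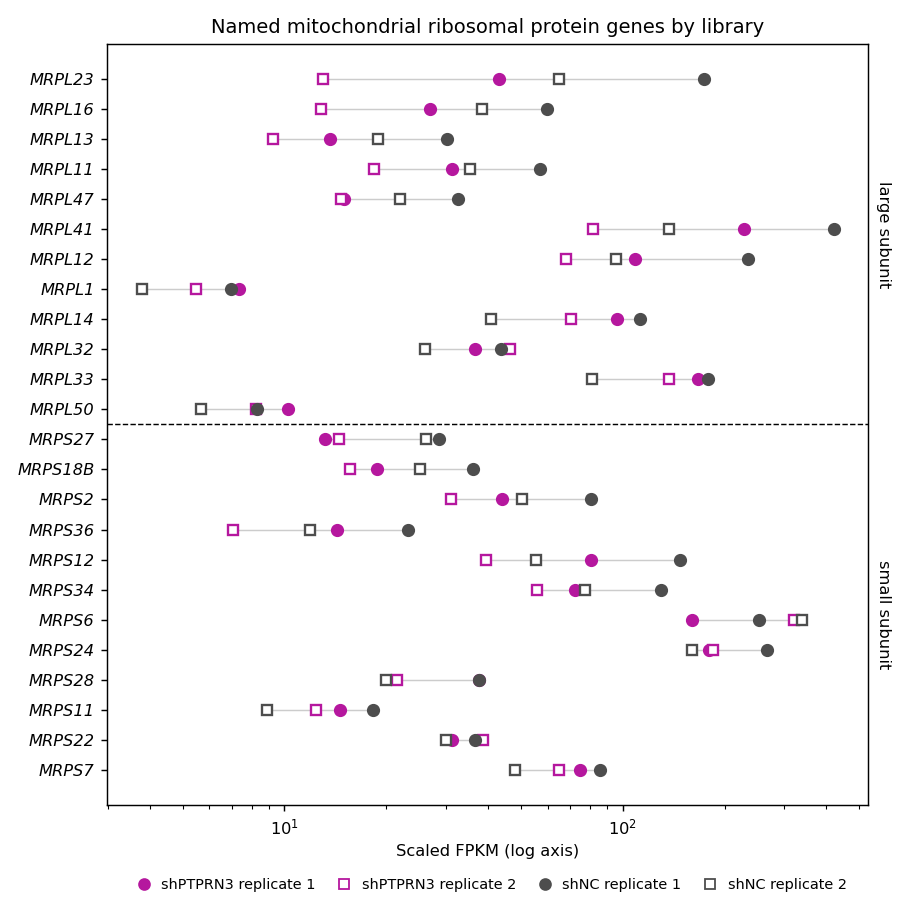
Level of each named mitochondrial ribosomal protein gene in each library, in scaled FPKM on a log axis. Each point is 1 library. MRPL23 lies lowest in shPTPRN3 replicate 2 (13.0 FPKM) and highest in shNC replicate 1 (174 FPKM).

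The 4 libraries did not order these genes by group alone. Relative to its own mean, the median large subunit gene stood at 0.05 in shPTPRN3 replicate 1, -0.29 in shPTPRN3 replicate 2, 0.58 in shNC replicate 1 and -0.29 in shNC replicate 2, on the log2 scale. The median small subunit gene stood at -0.09 and -0.26 in shPTPRN3 libraries, against 0.46 and -0.12 in shNC libraries. shNC replicate 1 was thus the library with the highest levels, and the second shNC library lay close to the shPTPRN3 libraries. Replicate 1 of shNC was the highest library in 68 of the 78 genes, or 87.2%, beside 30.1% of all genes tested and 62.2% of genes with transcripts under 1000 bases. It was highest in 92.9% of the 28 members under 1000 bases and in 84.0% of the 50 longer members. Among all genes tested, it was highest in 48.1% of those from 1000 to under 2000 bases and in 16.4% of longer ones. Among the 78 members, the lowest library was shPTPRN3 replicate 2 in 39 genes, shNC replicate 2 in 32 and shPTPRN3 replicate 1 in 7.

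The 2 shNC libraries also differed more from each other than the groups did. The median difference of shNC replicate 2 minus shNC replicate 1 was -0.73 over the 78 genes, beside 0.001 over all genes tested and -0.81 over genes with transcripts under 1000 bases. It was -0.92 over the 28 members under 1000 bases and -0.66 over the 50 longer members. Among all genes tested, it was -0.36 over those from 1000 to under 2000 bases and 0.24 over longer ones. In 54 of the 78 genes the larger of the group SDs exceeded the difference between group means.

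**Figure D2:**
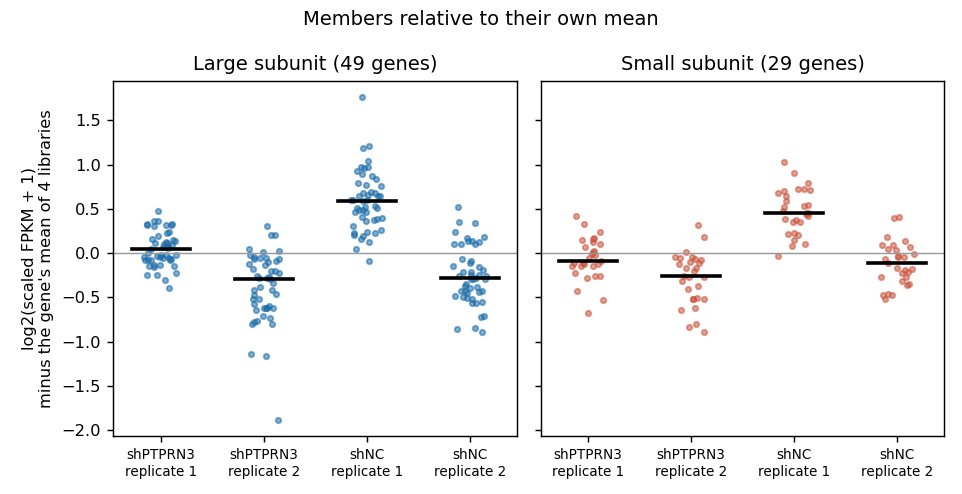
Each mitochondrial ribosomal protein gene relative to its own mean over 4 libraries, as log2(scaled FPKM + 1), for 49 large and 29 small subunit genes. The medians in shNC replicate 1 are 0.58 and 0.46, above the other 3 libraries in both subunits.

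Between the groups, none of the 78 genes passed the test. limma called 0 members at an adjusted p under 0.05, where it called 0.421% of all genes tested, 0.342% as lower and 0.079% as higher in shPTPRN3. The members' adjusted p ran from 0.241 to 0.992 (limma, Benjamini-Hochberg over all genes tested). At an unadjusted p under 0.05, 5 members were lower and 0 higher in shPTPRN3, beside 7.77% of all genes lower and 5.67% higher. In bulk RNA, fewer cells of a type and less RNA per cell cannot be told apart.

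The values of the groups did not overlap in 23 members, all lower in shPTPRN3, which is 29.5% beside 23.1% of all genes tested. Not overlapping and higher in shPTPRN3 were 0 members, beside 21.5% of all genes. The fitted difference was negative in 64 members and positive in 14, with a median of -0.29, beside -0.01 over all genes. The exact permutation test over 2 against 2 libraries cannot give a p below 0.333.

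The large subunit genes with the most negative differences were MRPL23, MRPL16, MRPL13, MRPL11 and MRPL47, all of bacterial families. In each, both shPTPRN3 values were below both shNC values. MRPL23 (chr11:1947332-1956599, plus strand, hg38), whose bacterial relative lines the exit of the peptide tunnel, had 43.1 and 13.0 FPKM in shPTPRN3 libraries and 174 and 64.8 FPKM in shNC libraries. The 2 groups were apart, but libraries of each group also differed by more than 2-fold from one another. The difference of -2.11 (SE 0.67) gave an adjusted p of 0.241 in limma, the smallest among the members. Without 1 library it ran from -2.94 (without shPTPRN3 replicate 1) to -1.28 (without shPTPRN3 replicate 2). MRPL23 is among the 5 members with more than 1 row in the tables, whose values were summed, and it overlaps the small RNA gene SNORD131. The other such members are MRPL45, MRPS12, MRPS18B and MRPS36.

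MRPL16 (chr11:59806140-59810778, minus strand), a protein of the large subunit core whose bacterial relative helps to position transfer RNA, had 27.0 and 12.9 FPKM in shPTPRN3 libraries and 59.7 and 38.3 FPKM in shNC libraries. MRPL13, an early-binding protein in the bacterial large subunit, had 13.7 and 9.22 FPKM in shPTPRN3 libraries and 30.1 and 18.9 FPKM in shNC libraries. The log2 differences were -1.31 and -1.02, with adjusted p of 0.276 and 0.312 (limma). MRPL11, at the base of the stalk, had 31.2 and 18.4 FPKM in shPTPRN3 libraries and 56.8 and 35.4 FPKM in shNC libraries. MRPL47, whose bacterial relative sits beside that of MRPL23 at the tunnel exit, had 15.0 and 14.7 FPKM in shPTPRN3 libraries and 32.6 and 22.0 FPKM in shNC libraries. MRPL47 had the tightest shPTPRN3 values of the 5 genes, and it overlaps ACTL6A. Without 1 library the differences ran from -1.82 to -0.80 for MRPL16, -1.35 to -0.70 for MRPL13, -1.24 to -0.51 for MRPL11 and -1.09 to -0.54 for MRPL47. The value nearest 0 came without shPTPRN3 replicate 2 in MRPL16 and MRPL11, and without shNC replicate 1 in MRPL13 and MRPL47.

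The large subunit genes with the most positive differences, MRPL50, MRPL33, MRPL32, MRPL14 and MRPL1, all had overlapping groups. MRPL50, a mitochondria-specific protein, had 10.3 and 8.23 FPKM in shPTPRN3 libraries and 8.29 and 5.67 FPKM in shNC libraries. MRPL32, which is cleaved after import in yeast and mouse before it joins the ribosome, had 36.7 and 46.3 FPKM in shPTPRN3 libraries and 43.8 and 26.1 FPKM in shNC libraries. In these genes shNC replicate 2 was the lowest library. MRPL14, which faces the small subunit, had 95.9 and 70.3 FPKM in shPTPRN3 libraries and 112 and 40.8 FPKM in shNC libraries. MRPL1, of the mobile stalk beside the exit site of transfer RNA, had 7.36 and 5.46 FPKM in shPTPRN3 libraries and 6.95 and 3.79 FPKM in shNC libraries. Differences for the 5 genes were 0.37, 0.33, 0.28, 0.27 and 0.25 in the order named, with adjusted p between 0.682 and 0.878 (limma).

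In the small subunit, MRPS27, MRPS18B, MRPS2, MRPS36 and MRPS12 had the most negative differences. MRPS27 (chr5:72219403-72320240, minus strand), a mitochondria-specific protein with pentatricopeptide repeats, had 13.2 and 14.5 FPKM in shPTPRN3 libraries and 28.6 and 26.3 FPKM in shNC libraries. Its libraries lay close together within both groups, at 13.8 ± 0.916 FPKM in shPTPRN3 and 27.5 ± 1.67 FPKM in shNC (SD, n = 2 each). The difference was -0.94 (SE 0.31) with an adjusted p of 0.256 in limma, so it too missed the threshold. Without 1 library it ran from -1.005 to -0.88.

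MRPS18B, which is 1 of 3 human relatives of a single bacterial protein, had 18.8 and 15.6 FPKM in shPTPRN3 libraries and 36.1 and 25.1 FPKM in shNC libraries. Its relatives MRPS18A and MRPS18C had differences of -0.37 and -0.04, beside -0.78 for MRPS18B, and overlapping groups. MRPS2, a protein of the small subunit body-head junction in bacteria, had 44.0 and 31.1 FPKM in shPTPRN3 libraries and 80.7 and 50.3 FPKM in shNC libraries. The groups were apart for MRPS18B and MRPS2, and overlapped for the next 2 genes. MRPS36, a small protein since placed in the oxoglutarate dehydrogenase complex rather than the ribosome, had 14.3 and 7.04 FPKM in shPTPRN3 libraries and 23.1 and 11.9 FPKM in shNC libraries. MRPS12, of the decoding centre, had 80.5 and 39.5 FPKM in shPTPRN3 libraries and 147 and 55.3 FPKM in shNC libraries, and it overlaps SARS2, a mitochondrial seryl-tRNA synthetase gene. MRPS18B, MRPS36 and MRPS12 had 7, 2 and 2 rows in the tables, and the values of rows were summed. Without 1 library the differences ran from -1.03 to -0.52 for MRPS18B, -1.10 to -0.43 for MRPS2 and -1.13 to -0.21 for MRPS36, and MRPS12 turned to 0.029 without shNC replicate 1.

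Only 4 small subunit genes had positive differences, and all 4 had overlapping groups. MRPS7, of the head of the subunit, had 74.9 and 64.7 FPKM in shPTPRN3 libraries and 85.8 and 48.0 FPKM in shNC libraries. MRPS22, a mitochondria-specific protein mutated in an inherited respiratory chain disorder, had 31.2 and 38.7 FPKM in shPTPRN3 libraries and 36.6 and 30.0 FPKM in shNC libraries. The differences of 0.12 and 0.07 were smaller than their SE of 0.41 and 0.34. MRPS11, of the platform, had 14.6 and 12.4 FPKM in shPTPRN3 libraries and 18.3 and 8.88 FPKM in shNC libraries. MRPS28 had 37.7 and 21.5 FPKM in shPTPRN3 libraries and 37.6 and 20.0 FPKM in shNC libraries, so its groups were nearly equal library by library. The direction of these small differences turned when 1 library was left out, as given in the closing part on processing.

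The other members whose groups did not overlap, named here after their values were seen, were MRPL3, MRPL15, MRPL19, MRPL35, MRPL42 and MRPL45 in the large subunit. In the small subunit they were MRPS5, MRPS9, MRPS15, MRPS16, MRPS17, MRPS30, MRPS31 and MRPS35. Their differences ran from -0.77 in MRPL15 to -0.20 in MRPS31. The count of 23 became 70 without shNC replicate 2 and 45 without shPTPRN3 replicate 1, where 40.4% and 37.2% of all genes were lower and apart. Without shNC replicate 1, 25 members were lower and 32 were higher in shPTPRN3, beside 37.1% and 35.1% of all genes.

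**Figure D3:**
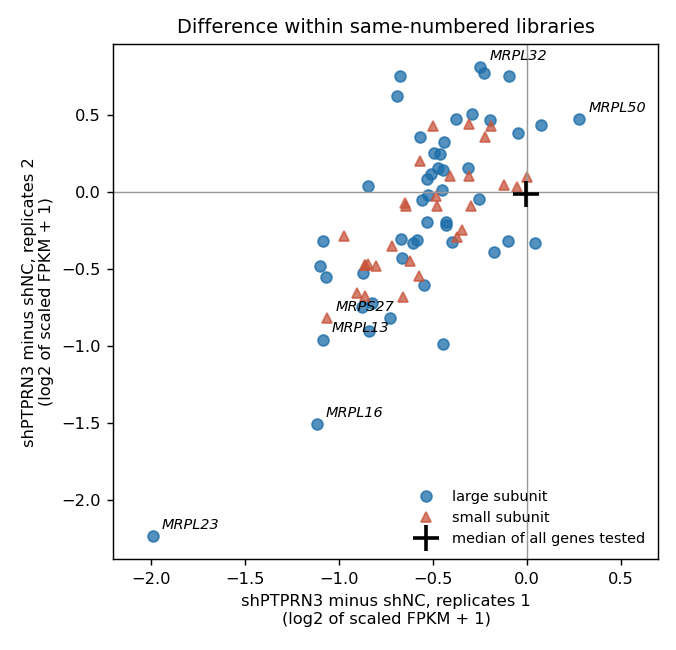
Difference shPTPRN3 minus shNC on the log2(scaled FPKM + 1) scale between the libraries numbered 1 (horizontal axis) and between those numbered 2 (vertical axis), 1 point per gene, coloured by subunit. Of 78 genes, 74 lie below 0 between libraries numbered 1 and 46 between libraries numbered 2.

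Set beside each other by replicate number, the differences were unequal. Between the libraries numbered 1, the median difference was -0.51 for large and -0.57 for small subunit genes, and 74 of 78 members were negative. Between the libraries numbered 2, it was -0.06 and -0.09, and 46 of 78 were negative. The median over all genes tested was -0.005 and -0.01 in these comparisons. The first comparison holds shNC replicate 1, the library with the highest share of short transcripts, and the part of that share in the result was not tested.

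Large and small subunit genes had like medians. The median difference was -0.28 for the large and -0.33 for the small subunit genes, which is a gap of 0.06 on the log2 scale. Without shNC replicate 1 the large subunit median turned to 0.13 and the small subunit median was -0.07. MRPS30 and MRPS18A carry small subunit symbols but sit in the large subunit in structures of the ribosome, and with them moved the gap was 0.01. Without 1 library at a time the gap ran from -0.11 to 0.20, so its sign depended on the libraries. Groups were apart and lower in 11 of 49 large subunit genes (22.4%) and in 12 of 29 small subunit genes (41.4%), beside 23.1% of all genes. No test of this difference in shares was made, since genes are not replicates.

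By descent, the 30 large subunit genes of bacterial families had a median of -0.25, with 9 apart and lower, and the 19 mitochondria-specific ones had -0.28, with 2. In the small subunit, the 18 genes of bacterial families had a median of -0.37, with 7 apart and lower. The 11 mitochondria-specific small subunit genes had -0.30, with 5. The shares apart and lower were 30.0%, 10.5%, 38.9% and 45.5% in the order given, beside 23.1% of all genes tested.

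The summed level of the large subunit genes was 2432 and 1696 FPKM in shPTPRN3 libraries, against 3730 and 1781 FPKM in shNC libraries. The summed level of the small subunit genes was 1078 and 1089 FPKM in shPTPRN3 libraries, against 1651 and 1189 FPKM in shNC libraries. In both subunits shNC replicate 1 stood above the other 3 libraries, and for the large subunit the groups overlapped. For the small subunit both shPTPRN3 sums were below both shNC sums, by less than the gap between the shNC libraries. All 78 genes together took 0.902% and 0.835% of all FPKM in shPTPRN3 libraries and 1.17% and 0.926% in shNC libraries.

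The ratio of the large to the small subunit sum followed the replicate number more than the group. It was 2.26 and 1.56 in shPTPRN3 libraries and 2.26 and 1.498 in shNC libraries. MRPS6 took part in this: without it the ratio was 2.65 and 2.21 in shPTPRN3 libraries and 2.67 and 2.09 in shNC libraries. The 3 highest genes made up 39.0% and 52.3% of the small subunit sum in shPTPRN3 libraries and 40.3% and 48.4% in shNC libraries. The ratio of the median levels, large over small, was 1.43 and 1.81 in shPTPRN3 libraries and 1.63 and 1.44 in shNC libraries. This ratio was thus higher in replicate 2 of shPTPRN3 but in replicate 1 of shNC.

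**Figure D4:**
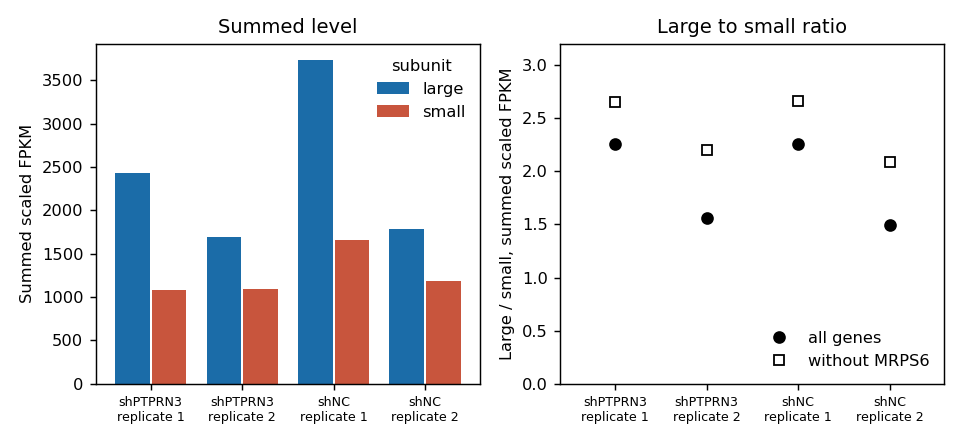
Left, summed scaled FPKM of the 49 large and 29 small subunit genes in each library. Right, the large to small ratio of these sums, with all genes and without MRPS6. The ratio with all genes is 2.26 in both libraries numbered 1, and 1.56 and 1.498 in the shPTPRN3 and shNC libraries numbered 2.

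These transcripts are short. The median annotated transcript was 1137 bases for the members, 1035 for the large and 1369 for the small subunit genes, beside 2456 bases over all genes tested. Among all genes tested, the median difference was -0.15 for transcripts under 1000 bases, -0.06 for 1000 to under 2000 bases and 0.04 for 2000 bases or more. Among the members, it was -0.22 for the 28 genes under 1000 bases and -0.35 for the 50 longer ones. Groups were apart and lower in 3 of the 28 (10.7%) and in 20 of the 50 (40.0%), beside 17.6% of all genes under 1000 bases, 24.8% of those from 1000 to under 2000 bases and 23.4% of longer ones. With the trends of each library with length and GC content removed, the medians were -0.14 for large and -0.25 for small subunit genes, 30 members were apart and lower, beside 27.3% of all genes, and 5 were apart and higher, beside 27.1%.

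**Figure D5:**
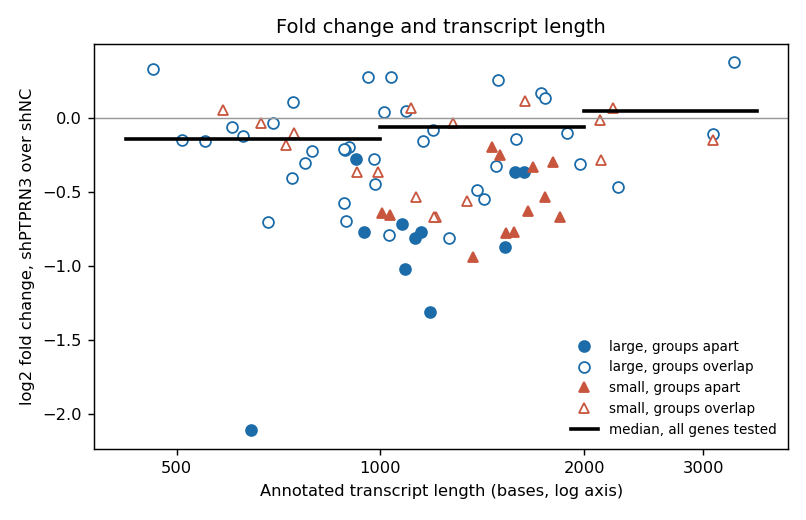
Fitted log2 fold change, shPTPRN3 over shNC, against annotated transcript length in bases (log axis) for the 78 mitochondrial ribosomal protein genes, filled where the groups did not overlap, with the median of all genes tested by length as lines. That median is -0.15 for transcripts under 1000 bases, and the members' is -0.22.

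The promoters of these genes, taken from RefSeq (GRCh38.p14) for the 69 members that matched, were searched on both strands over 250 bases before and 50 bases after the start. CCGGAAG, the core bound by ETS factors such as GABP, was found in 29 of 69 members (42.0%), beside 10.7% of all promoters and 20.5% of promoters of genes tested. AAGATGGC, the core bound by YY1, was found in 20 of 69 (28.99%), beside 3.03% and 5.87%. GCGCANGCG, of NRF1, was found in 18.8% of members, beside 8.05% of all promoters and 15.95% of promoters of genes tested. CACGTG, the E-box of MYC and USF factors, was found in 8.70%, beside 7.43% and 10.6%, and GGGCGG, of SP1, in 60.9%, beside 44.6% and 71.3%. The ETS, YY1 and NRF1 letters had a higher share in the members than among promoters of genes tested, NRF1 only at 18.8% beside 15.95%. No test of this was made. A match describes letters and does not show binding.

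The ETS letters are shown because they were found in more of these promoters than the YY1 letters. The stretches run from 60 bases before to 10 bases after the start, 5′ to 3′ along the gene, with CCGGAAG or its reverse complement CTTCCGG in capitals. They lie at chr11:59810769-59810838 (MRPL16, minus strand), chr3:179604629-179604698 (MRPL47, minus), chr2:27771659-27771728 (MRPL33, plus), chr19:38930884-38930953 (MRPS12, plus) and chr16:1773125-1773194 (MRPS34, minus).
MRPL16: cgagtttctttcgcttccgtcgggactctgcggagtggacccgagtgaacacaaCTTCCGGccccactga
MRPL47: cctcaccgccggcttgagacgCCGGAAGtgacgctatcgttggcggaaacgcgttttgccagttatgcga
MRPL33: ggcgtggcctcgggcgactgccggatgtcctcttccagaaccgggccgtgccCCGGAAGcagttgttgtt
MRPS12: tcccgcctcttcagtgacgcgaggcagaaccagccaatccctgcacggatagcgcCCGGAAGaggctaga
MRPS34: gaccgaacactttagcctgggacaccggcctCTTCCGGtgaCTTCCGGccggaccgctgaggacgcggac
MRPS34 holds 2 matches in this stretch and the other 4 genes hold 1. MRPL33 had overlapping groups and a positive difference, while MRPL16, MRPL47 and MRPS34 had groups apart and lower in shPTPRN3.

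In 15 of 69 members (21.7%), AAGATGGC lay on the gene's own strand in the 50 bases after the start. These are part of the 20 members with the YY1 letters above, and are 8 of 42 large and 7 of 27 small subunit genes. AAGATGGC was found in these 50 bases in 1.39% of all promoters and 3.51% of promoters of genes tested. Its first base lay between base 7 and base 36 of the transcript, and the letters hold an ATG. The same core belongs to the TISU element, an initiator of transcription and translation in genes with short leaders. The 30 bases around it are shown 5′ to 3′ with the letters in capitals, because their place near the start is what these members share. They lie at chr9:101398577-101398606 (MRPL50, minus strand), chr5:72320206-72320235 (MRPS27, minus), chr6:30617852-30617881 (MRPS18B, plus), chr17:75261887-75261916 (MRPS7, plus) and chr7:43869480-43869509 (MRPS24, minus).
MRPL50: ggatctcatcgAAGATGGCggcgcgatctg
MRPS27: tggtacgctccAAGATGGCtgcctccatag
MRPS18B: gggcgtacgtcAAGATGGCggcgtctgtat
MRPS7: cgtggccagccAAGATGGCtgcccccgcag
MRPS24: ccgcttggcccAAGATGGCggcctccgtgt
The letters begin at base 24 in MRPL50 and MRPS18B, at base 17 in MRPS27 and at base 20 in MRPS7 and MRPS24. MRPS27 and MRPS18B were lower in both shPTPRN3 libraries than in both shNC libraries, and the other 3 had overlapping groups.

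Members with and without these letters had overlapping ranges of differences. Members with the AAGATGGC match after the start had a median difference of -0.18, and members without it -0.30. Groups were apart and lower in 5 of 15 with it and in 14 of 54 without it, beside 23.1% of all genes tested. For the ETS letters the medians were -0.31 with and -0.28 without, and for NRF1 -0.15 with and -0.30 without. For SP1 they were -0.30 with and -0.15 without, and for the E-box -0.13 with and -0.28 without. For the YY1 letters anywhere in the promoter they were -0.20 with and -0.30 without.

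Several members share their start region with another gene. A protein-coding gene starts on the opposite strand within 1000 bases in 17 of 78 members (21.8%), beside 10.3% of 10484 protein-coding genes tested. MRPL46, of the large subunit, and MRPS11, of the small subunit, are such a pair, with starts 34 bases apart. MRPL46 had 32.1 and 41.5 FPKM in shPTPRN3 libraries and 51.8 and 24.2 FPKM in shNC libraries, and its difference of 0.04 stood beside 0.06 for MRPS11. Both genes had overlapping groups with shNC replicate 1 highest and shNC replicate 2 lowest. Of the 17 members with such a neighbour, 2 were apart and lower (11.8%), against 21 of the 61 others (34.4%), beside 23.1% of all genes, with medians of -0.12 and -0.31. Another gene in the tables overlaps 19 members (24.4%), beside 34.5% of genes tested, and 34 members have pseudogenes named in GENCODE, 75 in all, so part of their reads may be shared.

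Another 5 proteins of the mitochondrial ribosome carry other symbols, and 0 of them passed the test. DAP3, a GTP-binding protein of the small subunit first described in cell death, had 45.4 and 52.6 FPKM in shPTPRN3 libraries and 38.5 and 29.2 FPKM in shNC libraries. PTCD3, a pentatricopeptide repeat protein of the small subunit, had 3.77 and 3.08 FPKM in shPTPRN3 libraries and 8.01 and 8.83 FPKM in shNC libraries. Both had groups apart, DAP3 higher by 0.53 and PTCD3 lower with a difference of -1.09, at adjusted p of 0.541 and 0.187 (limma). CHCHD1, AURKAIP1 and GADD45GIP1 had differences of -0.38, -0.17 and -0.41 and overlapping groups.

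Genes that work with this ribosome had median group differences near those of its proteins, and 1 of 98 tested passed. Their library patterns were not all alike. The median of shNC replicate 2 minus shNC replicate 1 was -0.73 over the members, -0.47 for assembly and -0.39 for import and mass. It was -0.03 for mitochondrial translation, 0.02 for tRNA charging, 0.02 for mitochondrial DNA copying and transcription and 0.38 for regulators. Beside all counts of genes apart in these lists stand 23.1% lower and 21.5% higher over all genes tested, and no list was tested as a set. Of 27 genes of ribosome assembly, 10 were apart and lower (37.0%) and 1 higher, with a median of -0.29. MTERF4, an assembly factor, had 7.43 and 4.40 FPKM in shPTPRN3 libraries and 18.4 and 10.9 FPKM in shNC libraries, and MRM1, a methyltransferase of the ribosomal RNA, 6.81 and 3.78 against 15.5 and 9.04 FPKM. Both were apart, with adjusted p of 0.267 and 0.317 (limma).

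Of 14 tested genes of mitochondrial translation, 6 were apart and lower (42.9%, beside 23.1% of all genes) and 1 higher, with a median of -0.30. Beside translation factors, this list holds MTFMT, TACO1, LRPPRC, SLIRP and OXA1L, and of these MTFMT, TACO1 and LRPPRC were apart and lower. The higher one was MTIF3, a translation initiation factor, which was called by limma (adjusted p = 0.0065). It had 9.88 and 9.87 FPKM in shPTPRN3 libraries and was listed at 0 in both shNC libraries, so no fold is given. It overlaps GTF3A, and the call was lost without shNC replicate 1 (adjusted p = 0.0705) or replicate 2 (0.0544). LRPPRC, which stabilises mitochondrial messenger RNA, had 10.2 and 11.2 FPKM in shPTPRN3 libraries and 17.1 and 28.5 FPKM in shNC libraries. TACO1, an activator of COX1 translation, had 23.9 and 14.1 FPKM in shPTPRN3 libraries and 36.2 and 25.0 FPKM in shNC libraries. For both of these genes the groups were apart without passing the test. GFM2, a recycling factor, was listed at 0 in all 4 libraries and not tested.

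Of 20 genes of mitochondrial tRNA charging, 9 were apart and lower (45.0%, beside 23.1% of all genes) and 3 higher, with a median of -0.30. This list holds aminoacyl-tRNA synthetases and also QRSL1, GATB and GATC, the subunits of an amidotransferase. QRSL1 was among the lower genes, and GATB and GATC were among the higher ones. MARS2, the methionine enzyme, had 2.10 and 2.12 FPKM in shPTPRN3 libraries and 5.31 and 5.21 FPKM in shNC libraries (adjusted p = 0.202 in limma). Of 10 genes of mitochondrial DNA copying and transcription, 6 were apart and lower (beside 23.1% of all genes) and 1 higher, with a median of -0.27. TWNK, the helicase of mitochondrial DNA, had 2.73 and 2.77 FPKM in shPTPRN3 libraries and 8.14 and 8.50 FPKM in shNC libraries (adjusted p = 0.117 in limma). TFAM, which packs that DNA and takes part in its transcription, had 3.96 and 3.61 FPKM in shPTPRN3 libraries and 7.27 and 8.40 FPKM in shNC libraries. In MARS2, TWNK and TFAM the groups were apart and did not pass the test.

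Of 18 genes of import and mitochondrial mass, 8 were apart and lower (44.4%, beside 23.1% of all genes) and 1 higher, with a median of -0.38. PHB2, a prohibitin of the inner membrane, had 83.2 and 32.0 FPKM in shPTPRN3 libraries and 165 and 86.4 FPKM in shNC libraries. VDAC1, the outer membrane pore, had 100.2 and 64.6 FPKM in shPTPRN3 libraries and 171 and 142 FPKM in shNC libraries. Of 9 tested regulators of these genes, 2 were apart and lower (22.2%) and 1 higher, with a median of -0.22. MYC had 17.7 and 13.9 FPKM in shPTPRN3 libraries and 29.4 and 27.4 FPKM in shNC libraries, and PPARGC1A, a coactivator of mitochondrial biogenesis, 2.35 and 2.89 against 3.59 and 8.17 FPKM. For these 4 genes the groups were apart, with adjusted p between 0.337 and 0.421 (limma).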

How the data were processed

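RNA of U87 cells with the hairpin against PTPRN (shPTPRN3, 2 libraries) or the empty vector (shNC, 2 libraries) was extracted with Trizol and made into libraries with the KAPA stranded kit, per the labels. Cufflinks 2.2.1.2, STAR 2.6.0b-1 and FastQC 0.72 and the build hg38 are named in the submitters' processing notes. Annotation, strand setting and options were not given in the sources used here. What the authors deposited was FPKM per gene with confidence intervals, per the file headers, without fragment counts. FPKM depend on the length assumed for a gene and on how fragments of overlapping genes and copies are shared.

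The 651 of 33646 rows whose status was not OK throughout were dropped, and FPKM were summed per symbol. Values were scaled by median-ratio factors of 1.05 and 0.943 (shPTPRN3) and 1.04 and 0.974 (shNC), computed over 9988 genes that reached 1 FPKM in each library. Genes averaging 1 or more were tested with limma 3.58.1 in R 4.3.3 on log2(FPKM + 1), eBayes with a trend, two-sided, Benjamini-Hochberg over 11390 genes, threshold 0.05. The fit had 2 residual and 4.94 prior degrees of freedom. The pseudocount understates the changes of low genes.

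The widths of deposited intervals of single-exon genes, with full annotated lengths, gave the depth estimates. The median interval half-width of the 73 members with a single row was 6.04% and 10.1% in shPTPRN3 and 6.44% and 9.99% in shNC libraries, and covers error within a library. In 29 of these members the deposited value lay outside its own interval in at least 1 library. Lengths, pseudogenes and strands came from GENCODE 29, and promoters from RefSeq. The scripts were tested on simulated data. Python 3.11.15, pandas 2.3.3, numpy 2.4.6 and matplotlib 3.10.9 were used.

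The members and gene lists were chosen with earlier results of these data known. Named genes were PTPRN, up to 5 members per subunit and direction with the largest difference among those averaging at least 5 FPKM, the 3 highest per subunit, the proteins with other symbols, and per list the called genes and the 2 largest differences. Relatives, neighbours and further members were named after their values were seen. Alternatives covered scaling, pseudocount, filters, eBayes settings, the replicate block, length and GC trends, and leaving out each library.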

Additional observations from a re-analysis of the deposited data

How the results depend on the processing

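In the alternatives with all 4 libraries and no replicate block, 4 to 13 members had an unadjusted p under 0.05 (limma). The 4 came with FPKM as deposited, beside 1465 of 11394 genes, and with TPM, beside 1307 of 12929 genes. The 13 came with length and GC trends removed, beside 2477 of 11010 genes. The members' count of 0 calls held under all these alternatives, but not under the replicate block. The count over all genes, 48, was 31 with FPKM as deposited, 23 with a pseudocount of 0.1, 0 unfiltered (2163 had an unadjusted p under 0.05), 8 among genes averaging 5 FPKM or more, 217 with genes listed at 0 left out, 26 without an eBayes trend, 160 with robust eBayes, 210 with length and GC trends removed, and 39 to 179 without 1 library. The cause was not tested. PTPRN passed with genes at 0 left out (-2.22, adjusted p = 0.0269), robust eBayes (-2.22, 0.0362) and trends removed (-2.23, 0.0356), and ran from -2.44 to -1.99 without 1 library. The adjusted p are limma's.

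Without 1 library, the median difference ran from -0.66 to 0.13 for the large subunit, positive without shNC replicate 1, and from -0.55 to -0.07 for the small. The difference in the large to small ratio, 0.03 for shPTPRN3 minus shNC, ran from -0.35 to 0.41. With TPM the median of all genes was 0.08, and those of the large and small subunit genes were -0.19 and -0.25. Without 1 library, the count of the 78 members apart and lower ran from 24 to 70. The 24 came without shPTPRN3 replicate 2, beside 32.5% of all genes, and the 70 without shNC replicate 2, beside 40.4%. In these settings 3 and 0 members were apart and higher, beside 31.3% and 39.2% of all genes.

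The lowest and highest differences without 1 library were -0.24 and 0.89 for MRPL33, -0.085 and 0.64 for MRPL32, -0.45 and 0.99 for MRPL14, -0.11 and 0.62 for MRPL1, -1.37 and 0.029 for MRPS12, -0.30 and 0.53 for MRPS7, -0.085 and 0.22 for MRPS22, -0.42 and 0.55 for MRPS11, -0.39 and 0.49 for MRPS28, -0.86 and 0.13 for MRPS6, -0.55 and 0.18 for MRPS24, -0.93 and 0.17 for CHCHD1, -0.86 and 0.53 for AURKAIP1 and -1.12 and 0.29 for GADD45GIP1. AURKAIP1 was 0.0085 with trends removed. Over 42 named genes and 17 alternatives, 666 of 710 values kept their direction and side of the threshold, 21 passed it under the replicate block, 3 lost the call (MTIF3, unfiltered and without either shNC library) and 20 changed sign.

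The labels number the libraries 1 and 2 in both groups without saying that a number marks a shared culture or day. Same-numbered libraries deviated together over genes (r = 0.519). With 2 libraries per group, the r of unlike-numbered libraries is then fixed at -0.519. Both libraries numbered 1 also had the higher estimated depth in their group, so r alone does not show a shared culture or day. The block leaves fewer residual degrees of freedom than the 2 of the main fit. With the replicate block, 2163 genes or 18.99% were called, 955 higher (8.38%) and 1208 lower (10.6%). Of the members 11 were called, or 14.1%, all lower: MRPL11, MRPL13, MRPL15, MRPL16, MRPL23, MRPL35, MRPL41, MRPL47, MRPS2, MRPS18B and MRPS27. PTPRN had -2.22 and an adjusted p of 9.212e-07 in limma with the block, and the medians of the subunits were -0.28 and -0.33.

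The tables hold no fragment counts, so depth limits are known only through the deposited intervals.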
